A study of Mus musculus with 5 samples.

Results

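Transcript levels of 37 genes that carry glucose to lactate or to acetyl-CoA were compared between mouse pancreatic cancer cells with high and with low autophagy flux. The genes were taken as the rows of the deposited table whose symbol equals one of a list covering glucose uptake, each glycolytic step, lactate export and control of the pyruvate dehydrogenase complex, 37 of 52459 rows. The glyceraldehyde-3-phosphate dehydrogenase gene was left out because of its many copies in the genome. All cells came from the HY15549 line, of C57BL/6 background, and carried the GFP-LC3-RFP reporter, a fusion from which autophagy flux is read as a ratio of green to red signal. Organoids of these cells were grown with serum inside Matrigel, a gel of basement membrane proteins, and were dissociated and sorted on that ratio into autophagy-high (AThi, 2 libraries) and autophagy-low (ATlo, 3 libraries) cells. Both populations carry the same reporter and derive from 1 line. The series calls its libraries biological replicates. Their titles carry codes that begin alike in the AThi and ATlo libraries of the same number and differ between numbers, but no label says what the codes mean or names separate cultures, so p-values reflect only how far these 5 libraries scatter, which may be technical in part.

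Glycolysis splits glucose into pyruvate in the cytosol. Hexokinase traps glucose as its phosphate, phosphofructokinase commits it to breakdown, and phosphoglycerate kinase and pyruvate kinase return ATP. Pyruvate then either becomes lactate, which leaves through monocarboxylate transporters, or enters mitochondria, where the pyruvate dehydrogenase (PDH) complex turns it into acetyl-CoA. PDH kinases switch that complex off by phosphorylation and PDH phosphatases switch it back on. Many steps have several isoform genes, and pancreatic cancer cells are known for a high rate of glycolysis.

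Levels are in FPKM, a read count corrected for transcript length and library depth, which allows levels of different genes to be set side by side. Implied depths were 27.6 to 45.0 M reads a library, so that 3 reads on a 1 kb transcript correspond to 0.0667 to 0.109 FPKM. Pearson's r across genes, which are not independent replicates, was 0.990 to 0.992 within groups and 0.926 to 0.948 between them. Epithelial markers were abundant in every library (Krt19 1395 to 1842 FPKM, Cdh1 316 to 392 FPKM), while Epcam was low at 1.51 to 3.57 FPKM. In bulk libraries, fewer cells of a type and less RNA per cell cannot be told apart.

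Of the 37 genes, 32 averaged 1 FPKM or more across the libraries and were tested. In AThi, 14 of the 32 were higher and 5 lower at a Benjamini-Hochberg adjusted p under 0.05 in limma, and 13 did not pass. Over all 11397 genes tested, 22.2% were called higher and 29.4% lower, 51.6% in either direction, against 19 of the 32 here. The median log2 fold change, AThi minus ATlo, was 0.15 over the 32 genes and -0.03 over all tested genes. By step, the 2 calls in uptake and trapping, 5 in upper glycolysis and 2 among the PFKFB genes were all rises. Lower glycolysis held 1 rise and 2 falls among 5 tested genes (20% and 40%). The largest rises were those of Pdk2 and Pfkfb3, a PDH kinase gene and a regulator gene of phosphofructokinase, and the largest fall was that of Eno3, an enolase gene. Ldha, Pkm and Tpi1, among the most abundant genes of the set, did not pass. Of 18 dissociation and immediate-early genes, 14 rose and 1 fell, and their summed level was 4384 to 6928 FPKM in AThi and 1736 to 2611 FPKM in ATlo, highest in AThi replicate 2. The part of these genes in the results on the 37 genes was not tested.

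**Figure D1:**
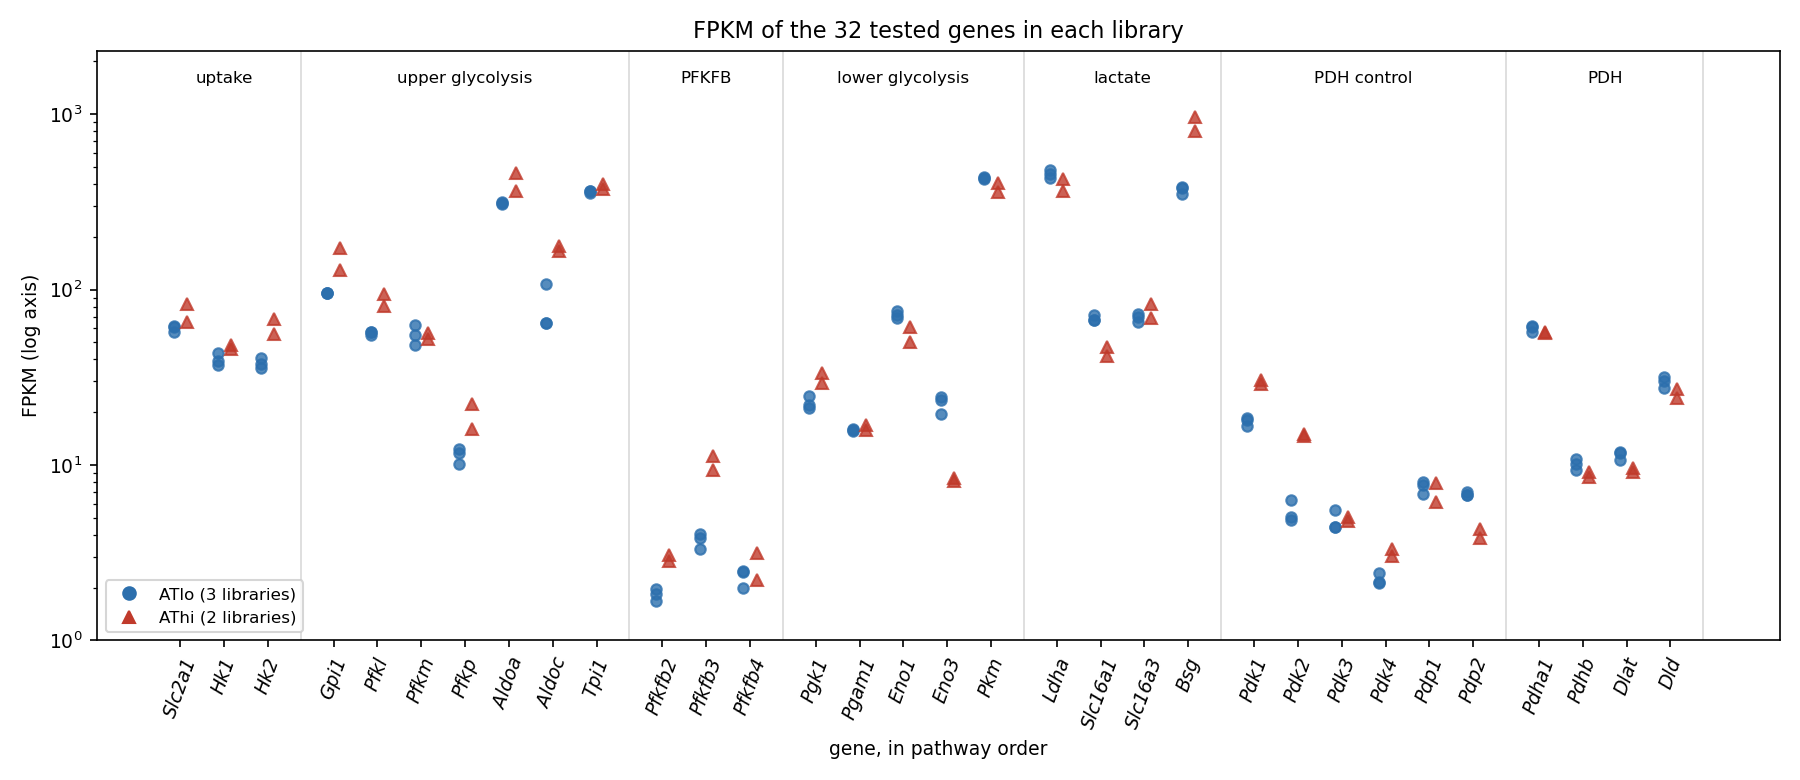
FPKM on a log axis for the 32 tested genes in pathway order, 3 ATlo libraries as blue circles and 2 AThi libraries as red triangles. The triangles lie above all circles in 16 genes, among them Hk2, Gpi1, Pfkl, Pfkfb3, Bsg, Pdk1 and Pdk2. They lie below all circles in 10, among them Eno3, Slc16a1 and Pdp2. Over all tested genes, 31.9% lay above and 38.4% below.

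Promoter sequences are given for 6 genes that span these outcomes. All 6 hold the short element ACGTG, which 14 of the 34 genes with a matched window hold. They show where the element lies and do not stand for the whole set. Hypoxia-inducible factor (HIF), a known activator of glycolytic genes, recognises a core that includes ACGTG. RefSeq promoter windows of build GRCm38.p6 matched 34 of the 37 symbols, and the first listed window of each gene was searched over the 250 bases before its start on both strands. The sequences run 5′ to 3′ on the gene's strand, with ACGTG and its reverse complement CACGT in capitals. Where both overlap they form CACGTG, the E-box, which is also read by MYC and related factors. The windows of Pfkfb2, Hk2, Pdk2, Pgk1, Ldha and Slc16a1, in that order, are chr1:130715822-130716071, chr6:82774455-82774704 and chr11:95041372-95041621 on the minus strand and chrX:106186850-106187099, chr7:46845554-46845803 and chr3:104638414-104638663 on the plus strand.
Pfkfb2: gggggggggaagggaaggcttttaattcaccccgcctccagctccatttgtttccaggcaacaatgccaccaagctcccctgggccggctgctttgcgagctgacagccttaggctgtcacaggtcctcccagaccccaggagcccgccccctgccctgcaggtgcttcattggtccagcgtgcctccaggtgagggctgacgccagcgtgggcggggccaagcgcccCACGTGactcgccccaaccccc
Hk2: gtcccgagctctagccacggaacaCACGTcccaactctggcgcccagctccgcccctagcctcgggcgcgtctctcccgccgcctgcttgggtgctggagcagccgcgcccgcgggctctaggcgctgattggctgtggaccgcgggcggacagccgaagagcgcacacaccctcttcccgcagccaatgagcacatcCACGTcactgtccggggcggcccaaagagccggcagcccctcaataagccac
Pgk1: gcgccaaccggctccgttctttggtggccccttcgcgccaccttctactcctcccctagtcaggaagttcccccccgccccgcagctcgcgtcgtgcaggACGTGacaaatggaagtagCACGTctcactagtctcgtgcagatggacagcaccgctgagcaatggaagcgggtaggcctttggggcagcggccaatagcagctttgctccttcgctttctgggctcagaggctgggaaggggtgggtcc
Pdk2: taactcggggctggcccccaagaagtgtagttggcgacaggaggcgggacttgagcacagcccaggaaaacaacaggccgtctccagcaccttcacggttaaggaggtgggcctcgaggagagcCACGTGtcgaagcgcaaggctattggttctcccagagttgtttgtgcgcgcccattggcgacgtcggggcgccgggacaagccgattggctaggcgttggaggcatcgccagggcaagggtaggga
Ldha: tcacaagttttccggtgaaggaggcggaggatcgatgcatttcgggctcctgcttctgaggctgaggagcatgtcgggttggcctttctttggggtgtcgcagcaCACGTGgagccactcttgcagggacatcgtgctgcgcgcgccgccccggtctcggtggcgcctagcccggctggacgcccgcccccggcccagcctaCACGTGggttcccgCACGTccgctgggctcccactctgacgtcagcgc
Slc16a1: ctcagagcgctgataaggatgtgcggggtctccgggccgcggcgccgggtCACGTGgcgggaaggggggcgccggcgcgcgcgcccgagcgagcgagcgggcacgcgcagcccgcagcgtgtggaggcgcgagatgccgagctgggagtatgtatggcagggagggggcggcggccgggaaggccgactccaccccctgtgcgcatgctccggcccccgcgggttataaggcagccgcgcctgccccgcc

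Pfkfb2, Hk2, Pgk1 and Pdk2 rose in AThi, Ldha did not pass and Slc16a1 fell. Counted on both strands, so that an E-box counts as 2 matches, ACGTG occurred 2 times in each of the windows of Pfkfb2, Hk2, Pgk1, Pdk2 and Slc16a1. In Hk2 and Pgk1 these were separate, and in Pfkfb2, Pdk2 and Slc16a1 they formed 1 E-box. The Ldha window held 5 matches, 4 of them in its 2 E-boxes. For genes with several listed starts, the count depended on the start used. The second listed windows of Ldha and Pdk2 held 0 matches. The later windows of Pfkfb2 held 0 and 1, without an E-box. ACGTG was found in 5 of 13 genes that rose, 2 of 5 that fell and 7 of 12 that did not pass. Its share over the 34 matched genes was 41.2%, against 16.6% of the first windows of all 27025 genes and 22.6% of those of the 8587 tested genes that matched. The related core GCGTG was in 47.1% of the 34 windows and 47.2% of the windows of tested genes. CACGTG was in 17.6% of the 34 windows and 8.75% of the windows of tested genes. The 34 windows include those of 4 genes below the filter, which the tested genes leave out. Of these 4, 0 held ACGTG, 1 held GCGTG and 0 held CACGTG. A match describes letters in a window, not a bound site.

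At glucose entry, the hexokinase genes rose and the main glucose transporter gene missed the threshold. Hk2, the hexokinase induced in many tumours (chromosome 6, 82725025 to 82774454, minus strand, GRCm38), was at 55.5 and 68.1 FPKM in AThi and 35.7, 37.6 and 40.5 FPKM in ATlo. Both AThi libraries lay above all ATlo libraries, a log2 fold change of 0.69 ± 0.10 (SE) with an adjusted p of 0.00157. Hk1, the broadly expressed hexokinase, was at 45.7 and 48.1 FPKM in AThi and 43.4, 39.0 and 37.4 FPKM in ATlo, again without overlap. Its rise was small, 0.23 ± 0.08 (SE) at an adjusted p of 0.0455, and it was lost without either AThi library and without ATlo replicate 2 or 3 (adjusted p 0.0895, 0.189, 0.131 and 0.119). Slc2a1, which encodes the transporter GLUT1, was at 65.5 and 82.8 FPKM in AThi and 57.6, 61.4 and 61.8 FPKM in ATlo. The AThi libraries were again the highest, by 0.29 ± 0.10 (SE), with an adjusted p of 0.0529. The value varied with the AThi library used, at 0.46 (adjusted p 0.00916) without AThi replicate 1 and 0.12 (adjusted p 0.280) without AThi replicate 2. Slc2a3, the gene of the high-affinity transporter GLUT3, was below the filter at 0.13 to 0.54 FPKM, with overlapping groups, and made up at most 0.929% of the summed FPKM of both transporter genes. The share of Hk2 in the hexokinase sum was 56.7 ± 2.63% in AThi (SD, n = 2) against 48.7 ± 3.49% in ATlo (SD, n = 3), so that Hk1 was ahead in ATlo replicates 1 and 2 and Hk2 in the other libraries. An exact two-sided permutation test of this share gave a p of 0.2, the smallest that 2 against 3 libraries allow.

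In the steps from glucose-6-phosphate to the triose phosphates, 5 of 7 genes rose and 0 fell. Gpi1, the isomerase that makes fructose-6-phosphate, was at 129 and 172 FPKM in AThi and 95.8, 95.8 and 95.6 FPKM in ATlo. The ATlo libraries were nearly equal and both AThi libraries lay above them, a change of 0.64 ± 0.12 (SE). Of the 3 phosphofructokinase isoform genes, 2 rose. Pfkl, the liver-type subunit and the most abundant in AThi, was at 81.0 and 93.9 FPKM in AThi and 57.5, 57.0 and 54.8 FPKM in ATlo, with groups apart and a change of 0.62 ± 0.08 (SE) at an adjusted p of 0.000858. Pfkp, the platelet-type subunit, was at 16.0 and 22.4 FPKM in AThi and 10.2, 12.3 and 11.7 FPKM in ATlo, also apart, with a change of 0.71 ± 0.14 (SE). Pfkm, the muscle-type subunit, was at 56.3 and 52.2 FPKM in AThi and 62.7, 55.1 and 48.2 FPKM in ATlo. Its AThi libraries lay inside the ATlo range, and the value of -0.02 ± 0.11 (SE) had an adjusted p of 0.886.

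The share of Pfkm in the phosphofructokinase sum was 33.9 ± 4.06% in AThi (SD, n = 2) against 44.8 ± 3.06% in ATlo (SD, n = 3), and that of Pfkp was 11.9 ± 2.00% in AThi (SD, n = 2) against 9.30 ± 1.30% in ATlo (SD, n = 3). The libraries of both groups did not overlap in either share, with an exact permutation p of 0.2, the smallest possible, for each. As a sum over its 3 genes, phosphofructokinase was at 161 ± 10.7 FPKM (SD, n = 2) in AThi, against 123 ± 7.89 FPKM (SD, n = 3) in ATlo.

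Aldolase cleaves fructose-1,6-bisphosphate, and both of its genes in the set rose. Aldoa, the major form, was at 367 and 464 FPKM in AThi and 314, 308 and 313 FPKM in ATlo, with groups apart and a change of 0.40 ± 0.11 (SE). Its adjusted p of 0.0184 rose to 0.0745 without AThi replicate 2, where the change was 0.23, and to 0.0600 without ATlo replicate 2. The annotation holds 2 genes of that symbol and the deposited file only 1 row, so it is unknown which reads that row counts. Aldoc, best known from brain, was at 166 and 177 FPKM in AThi and 108, 64.9 and 64.1 FPKM in ATlo. ATlo replicate 1 stood above the other two ATlo libraries but below both AThi libraries, and the change was 1.16 ± 0.22 (SE) with an adjusted p of 0.00441. Tpi1, which interconverts the triose phosphates, was at 372 and 398 FPKM in AThi and 355, 367 and 363 FPKM in ATlo. Its AThi values were the highest by a small margin, 0.09 ± 0.07 (SE), and did not pass (adjusted p 0.339).

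The PFKFB enzymes make and remove fructose-2,6-bisphosphate, the strongest known activator of phosphofructokinase. Pfkfb3, the form with the highest kinase activity relative to phosphatase, was at 9.41 and 11.3 FPKM in AThi and 3.30, 3.85 and 4.02 FPKM in ATlo (chromosome 2, 11471433 to 11554077, minus strand, GRCm38). Every AThi value was more than the highest ATlo value, a rise of 1.36 ± 0.11 (SE) (adjusted p 0.000162). Pfkfb2, the form first studied in heart, was at 2.83 and 3.06 FPKM in AThi and 1.68, 1.96 and 1.84 FPKM in ATlo, a rise of 0.57 ± 0.10 (SE). Pfkfb4 was at 2.22 and 3.15 FPKM in AThi and 2.49, 1.99 and 2.46 FPKM in ATlo; the groups overlapped and it did not pass. Pfkfb1, the liver form, missed the filter with a mean of 0.922 FPKM, just under the 1 FPKM needed, and was at 0.73 and 0.71 FPKM in AThi and 0.96, 1.23 and 0.98 FPKM in ATlo. Pfkfb3 took 62.0 ± 0.0503% in AThi (SD, n = 2) against 41.7 ± 2.21% in ATlo (SD, n = 3) of the summed PFKFB transcripts, with no overlap and an exact permutation p of 0.2.

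**Figure D2:**
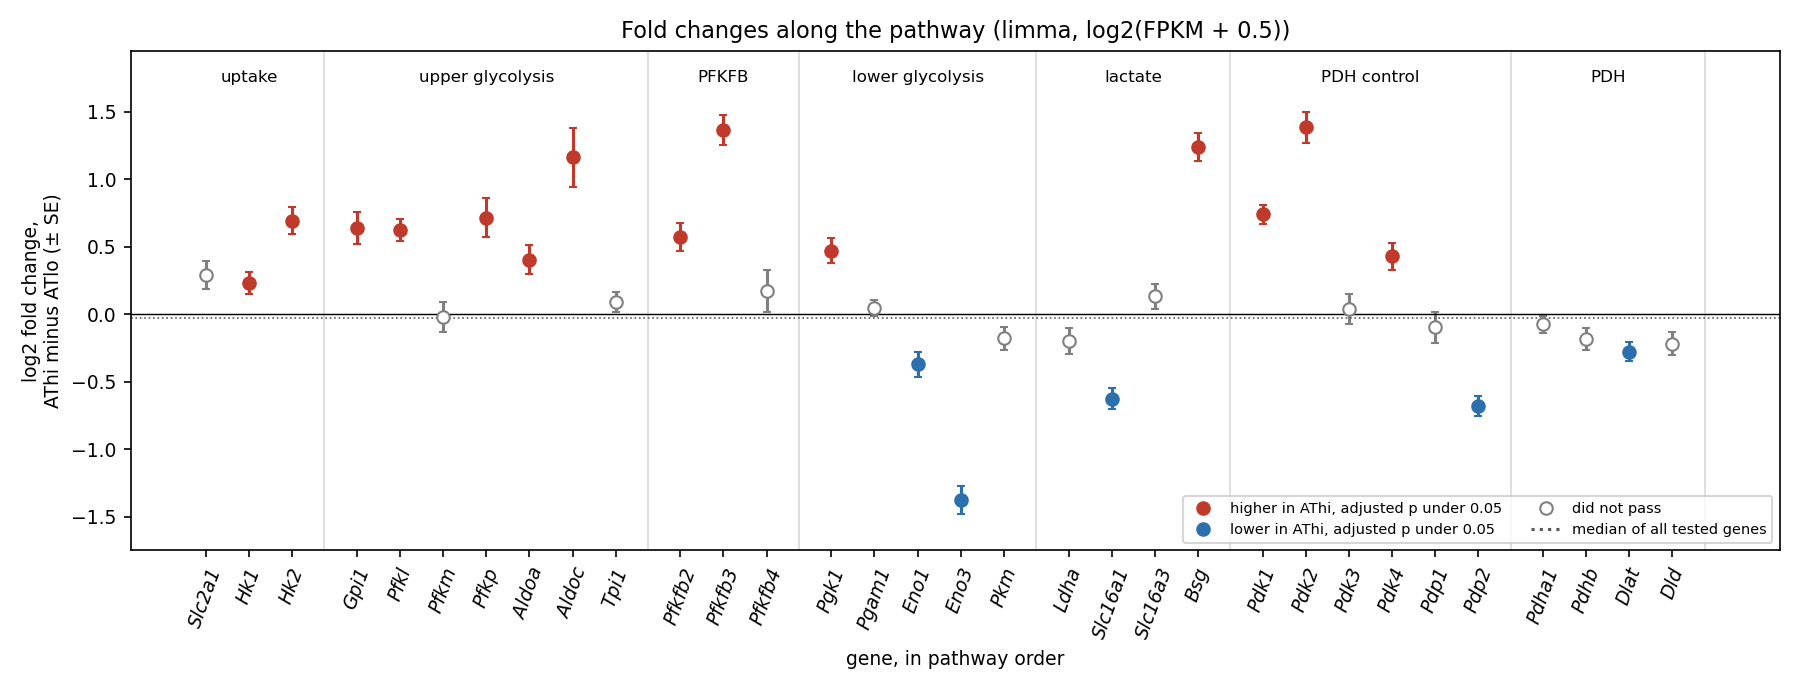
Log2 fold change with its SE (limma, AThi minus ATlo) for the 32 tested genes in pathway order; filled red points are higher and filled blue points lower in AThi at an adjusted p under 0.05, open points did not pass, and the dotted line is the median of all tested genes. Called rises include Hk1, Hk2, Gpi1, Pfkl, Aldoa, Aldoc, Pgk1, Bsg and 3 PDH kinase genes, while Slc2a1 and Pfkm did not pass. The called falls are Eno1, Eno3, Slc16a1, Pdp2 and Dlat.

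In lower glycolysis, from phosphoglycerate kinase to pyruvate kinase, 1 of 5 tested genes rose and 2 fell (20% and 40%). Over all tested genes, 22.2% were called higher and 29.4% lower, so these counts do not set the step apart. Pgk1, which makes the first ATP of the pathway, was at 29.4 and 33.7 FPKM in AThi and 21.2, 22.0 and 24.6 FPKM in ATlo, with all AThi values above ATlo and a change of 0.47 ± 0.09 (SE). Pgam1, the mutase that follows, was at 16.8 and 15.9 FPKM in AThi and 16.0, 15.9 and 15.6 FPKM in ATlo, where the groups overlapped and the value was 0.04 ± 0.06 (SE). Eno1, the ubiquitous enolase, was at 50.4 and 60.8 FPKM in AThi and 69.0, 71.4 and 75.2 FPKM in ATlo, lower in both AThi libraries, with a change of -0.37 ± 0.09 (SE). This call had an adjusted p of 0.0134 and was lost without AThi replicate 1 (adjusted p 0.0676). Eno3, the enolase of skeletal muscle (chromosome 11, 70657202 to 70662513, plus strand, GRCm38), was at 8.13 and 8.47 FPKM in AThi and 19.4, 23.6 and 24.4 FPKM in ATlo. It was lower in AThi without overlap, a change of -1.38 ± 0.10 (SE) at an adjusted p of 0.000121.

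Of the skeletal muscle markers, 5 of 7 were at 0 in every library. Acta1 was higher in AThi (4.20 and 4.78 FPKM) than in ATlo (0.66 to 0.74 FPKM), and Mylpf was lower (0.69 and 0.72 against 1.61 to 2.15 FPKM). The share of Eno3 in the enolase sum was 13.0 ± 1.16% in AThi (SD, n = 2) against 23.7 ± 1.56% in ATlo (SD, n = 3). Eno2, the neuronal enolase, was below the filter at 0.40 and 0.43 FPKM in AThi and 0.12, 0.19 and 0.17 FPKM in ATlo, with all AThi values above ATlo. In a fit with no filter on low values it changed by 0.47 ± 0.08 (SE) with an adjusted p of 0.0150. Pgam2, the muscle mutase, was at 0 to 0.06 FPKM, under the level of 3 reads (0.0794 to 0.130 FPKM for its length) in every library.

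Pkm, the pyruvate kinase gene of the set, was at 358 and 407 FPKM in AThi and 434, 438 and 428 FPKM in ATlo. Both AThi values lay below all ATlo values, with a value of -0.18 ± 0.08 (SE) and an adjusted p of 0.113, so the difference did not pass. Its M1 and M2 splice forms share 1 row and could not be told apart. Pklr, a pyruvate kinase gene outside the set, was at 31.2 to 40.4 FPKM over the 5 libraries and did not pass. Summed over isoforms, enolase was at 64.3 ± 7.61 FPKM (SD, n = 2) in AThi, against 94.5 ± 5.65 FPKM (SD, n = 3) in ATlo, and aldolase, upstream of it, at 587 ± 76.1 FPKM (SD, n = 2) in AThi, against 391 ± 27.1 FPKM (SD, n = 3) in ATlo.

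Reads of several of these genes could be shared with copies elsewhere. Other annotated genes matched at least 40% of the transcript in 8 of the genes (identity of at least 95% over at least 100 nt). These were Eno1 (85.6%), Ldhb (76.8%), Pdhb (71.2%), Pgk1 (68.8%), Pkm (65.5%), Gpi1 (55.3%), Ldha (55.0%) and Pgam1 (43.1%). How reads with several placements were counted is not given in the sources used here, so the levels of these genes, and shares that include them, are uncertain. Exons of other genes on either strand covered at least 10% of the exon length in Gpi1, Pfkm, Pfkfb2, Pkm and Pdha1.

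On the lactate branch, Ldha did not pass, 1 of 2 transporter genes fell, and the chaperone of those transporters rose. Ldha, which encodes the subunit that favours lactate formation, was at 366 and 428 FPKM in AThi and 430.1, 478 and 455 FPKM in ATlo. The AThi values were the lowest, narrowly in AThi replicate 2, with a value of -0.20 ± 0.10 (SE) and an adjusted p of 0.132. Ldhb, the gene of the subunit that favours pyruvate, was at 0 to 0.02 FPKM, under the level of 3 reads (0.0425 to 0.0693 FPKM for its length) in all libraries, so no fold is given. Slc16a1, the gene of the monocarboxylate transporter MCT1, was at 47.1 and 41.7 FPKM in AThi and 66.7, 67.4 and 72.0 FPKM in ATlo. It was lower in both AThi libraries, a change of -0.63 ± 0.08 (SE) with an adjusted p of 0.000731. Slc16a3, the gene of MCT4, the form tied to lactate export in glycolytic cells, was at 68.7 and 82.8 FPKM in AThi and 65.0, 72.3 and 69.4 FPKM in ATlo, with overlapping groups and a value of 0.13 ± 0.09 (SE).

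The share of Slc16a3 in the sum of both transporter genes was 62.9 ± 5.04% in AThi (SD, n = 2) against 50.1 ± 1.48% in ATlo (SD, n = 3). The groups did not overlap and the exact permutation p was 0.2. Bsg encodes basigin, which carries MCT1 and MCT4 to the cell surface (chromosome 10, 79704491 to 79711969, plus strand, GRCm38). It was the most abundant gene of the set in AThi, at 806 and 960.4 FPKM in AThi and 352, 381 and 387 FPKM in ATlo. Its change of 1.24 ± 0.10 (SE) had an adjusted p of 0.000176, and both AThi values were above 2 times the highest ATlo value.

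At the entry of pyruvate into mitochondria, 3 of 4 PDH kinase genes rose and 1 of 2 PDH phosphatase genes fell. Pdk1, a kinase gene known as a HIF target, was at 29.1 and 30.7 FPKM in AThi and 16.8, 18.5 and 18.0 FPKM in ATlo, with groups apart and a change of 0.74 ± 0.07 (SE). Pdk2, the most widely expressed kinase, was at 15.0 and 14.6 FPKM in AThi and 6.34, 5.06 and 4.83 FPKM in ATlo (chromosome 11, 95026258 to 95041354, minus strand, GRCm38). The AThi values were more than 2 times the highest ATlo value, a change of 1.38 ± 0.11 (SE) with an adjusted p of 0.000163. Pdk4, the kinase induced by fasting in muscle and liver, was low, at 3.02 and 3.31 FPKM in AThi and 2.14, 2.42 and 2.12 FPKM in ATlo, and rose by 0.43 ± 0.10 (SE). That call was lost without AThi replicate 2 (adjusted p 0.0749). Pdk3 was at 5.04 and 4.78 FPKM in AThi and 4.41, 5.54 and 4.45 FPKM in ATlo, with overlapping groups and an adjusted p of 0.800.

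Pdp2, a phosphatase catalytic subunit gene, was at 3.83 and 4.33 FPKM in AThi and 6.99, 6.73 and 6.78 FPKM in ATlo, lower in AThi without overlap, a change of -0.68 ± 0.08 (SE) with an adjusted p of 0.000565. Pdp1, the other catalytic subunit gene, was at 7.85 and 6.13 FPKM in AThi and 8.03, 6.79 and 7.64 FPKM in ATlo and overlapped between groups (adjusted p 0.508). The 4 kinase genes together were at 52.8 ± 0.834 FPKM (SD, n = 2) in AThi, against 30.2 ± 1.15 FPKM (SD, n = 3) in ATlo, and the 2 phosphatase genes at 11.1 ± 0.863 FPKM (SD, n = 2) in AThi, against 14.3 ± 0.755 FPKM (SD, n = 3) in ATlo. The ratio of both sums was 4.47 and 5.11 in AThi and 1.97, 2.33 and 2.04 in ATlo. Its mean was 4.79 ± 0.449 in AThi (SD, n = 2) against 2.11 ± 0.190 in ATlo (SD, n = 3), every AThi library lay above every ATlo library, and the exact permutation p was 0.2. Within the kinase sum, Pdk1 stayed the largest part at 56.6 ± 1.21% in AThi (SD, n = 2) against 58.8 ± 2.34% in ATlo (SD, n = 3), with overlapping groups, while Pdk2 took 28.1 ± 1.01% in AThi (SD, n = 2) against 18.0 ± 2.97% in ATlo (SD, n = 3) and Pdk3 took 9.30 ± 0.495% in AThi (SD, n = 2) against 15.9 ± 1.49% in ATlo (SD, n = 3).

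**Figure D3:**
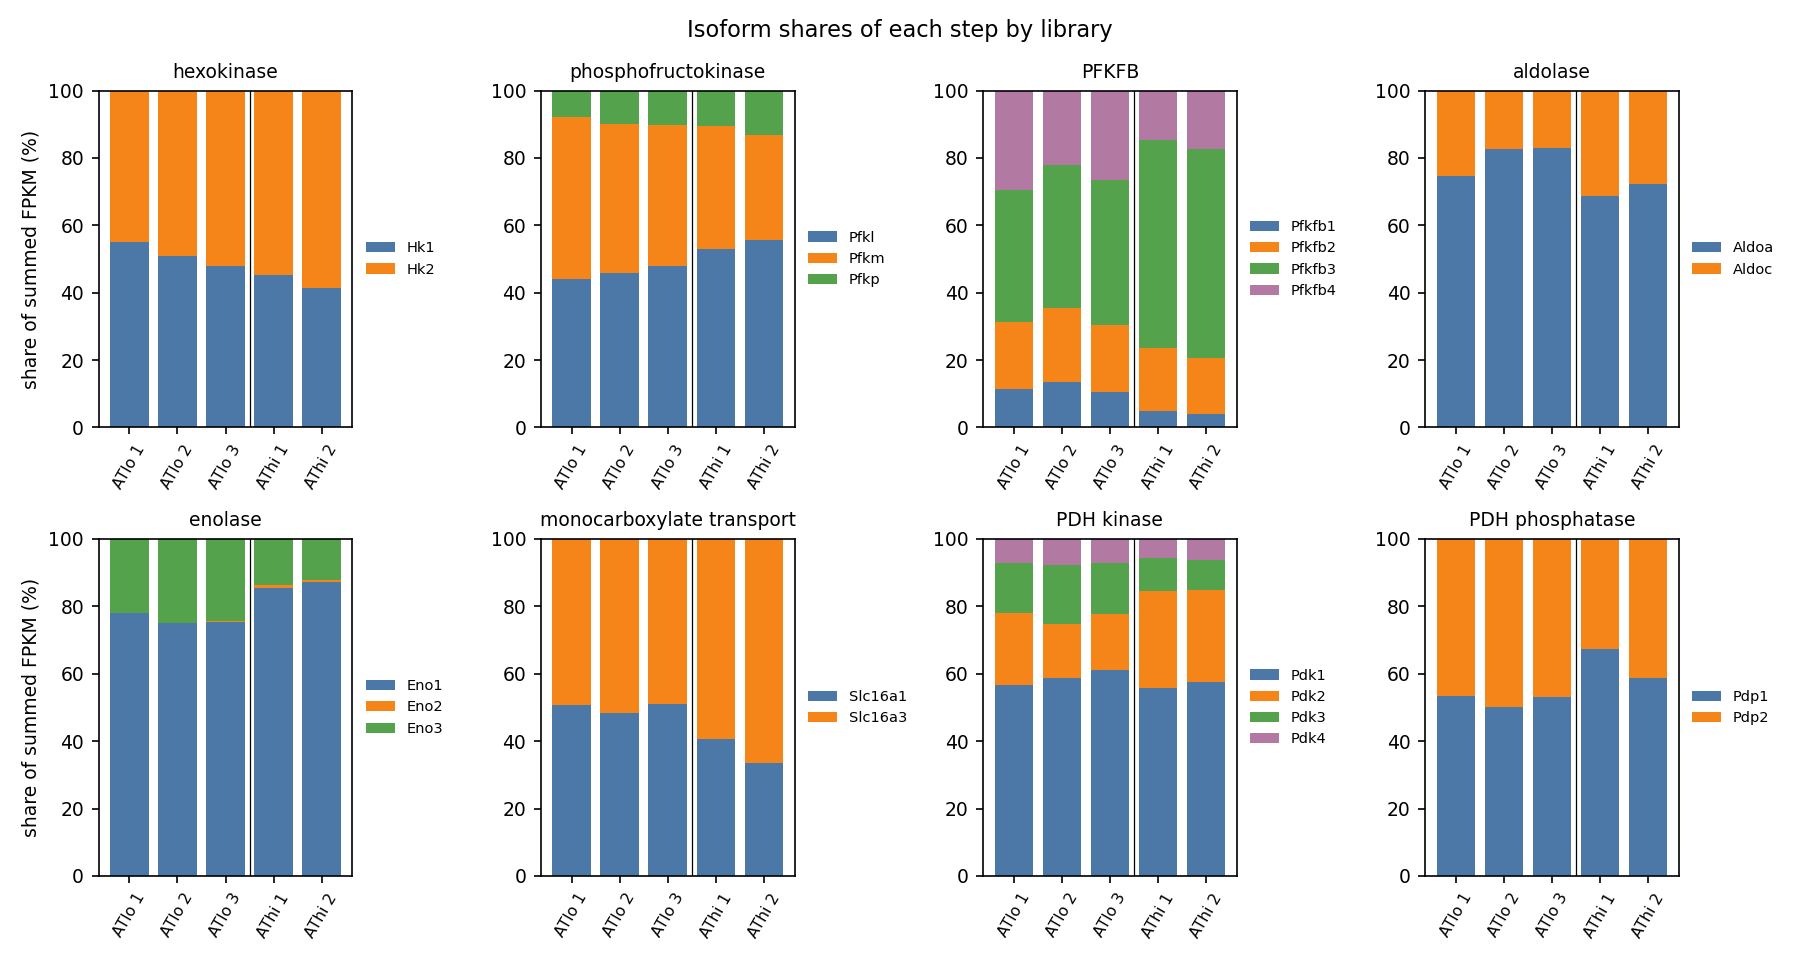
Share of each isoform in the summed FPKM of its step, as stacked bars per library, 3 ATlo libraries left and 2 AThi libraries right of the line. Pfkfb3 and Slc16a3 take larger parts in AThi, Eno3, Pfkm and Pdk3 smaller ones.

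Of the 4 tested genes of the PDH complex, 1 fell and 0 rose, against 29.4% called lower and 22.2% higher over all tested genes. Dlat, the acetyltransferase core (E2), was at 9.15 and 9.55 FPKM in AThi and 10.7, 11.7 and 11.9 FPKM in ATlo, lower in AThi with a change of -0.28 ± 0.07 (SE). Its adjusted p of 0.0153 rose to 0.0794 without AThi replicate 1 and 0.0594 without ATlo replicate 2. Pdha1, the E1 alpha subunit that the kinases phosphorylate, was at 57.5 and 56.5 FPKM in AThi and 61.0, 57.5 and 62.1 FPKM in ATlo, a value of -0.08 ± 0.06 (SE) that did not pass. Pdhb, the E1 beta subunit, was at 8.56 and 9.06 FPKM in AThi and 9.34, 10.8 and 10.1 FPKM in ATlo and Dld, the shared E3 subunit, at 27.1 and 24.1 FPKM in AThi and 27.7, 30.1 and 31.8 FPKM in ATlo. Their values were -0.18 ± 0.08 (SE) and -0.22 ± 0.08 (SE), with adjusted p-values of 0.0903 and 0.0663. With 1 library left out, the adjusted p of Pdhb ran from 0.0400 without ATlo replicate 1 to 0.301 without AThi replicate 1. That of Dld ran from 0.0358 without ATlo replicate 1 to 0.319 without AThi replicate 2, where its value was -0.14. In all 4 genes both AThi libraries lay below all ATlo libraries, for Pdha1 by a margin within rounding, a pattern found for 38.4% of all tested genes.

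Over the 32 tested genes, the libraries of both groups did not overlap in 26, with AThi above in 16 and below in 10. Over all tested genes, 31.9% lay above and 38.4% below, 70.3% in all. Of the 14 genes that rose, 11 passed in each fit that left out a library, and so did 3 of the 5 that fell; the calls of Hk1, Aldoa, Pdk4, Eno1 and Dlat depended on 1 or more libraries. AThi replicate 2 was above AThi replicate 1 in 13 of the 14 genes that rose, against 56.5% of all genes called higher and 46.9% of all genes tested.

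**Figure D4:**
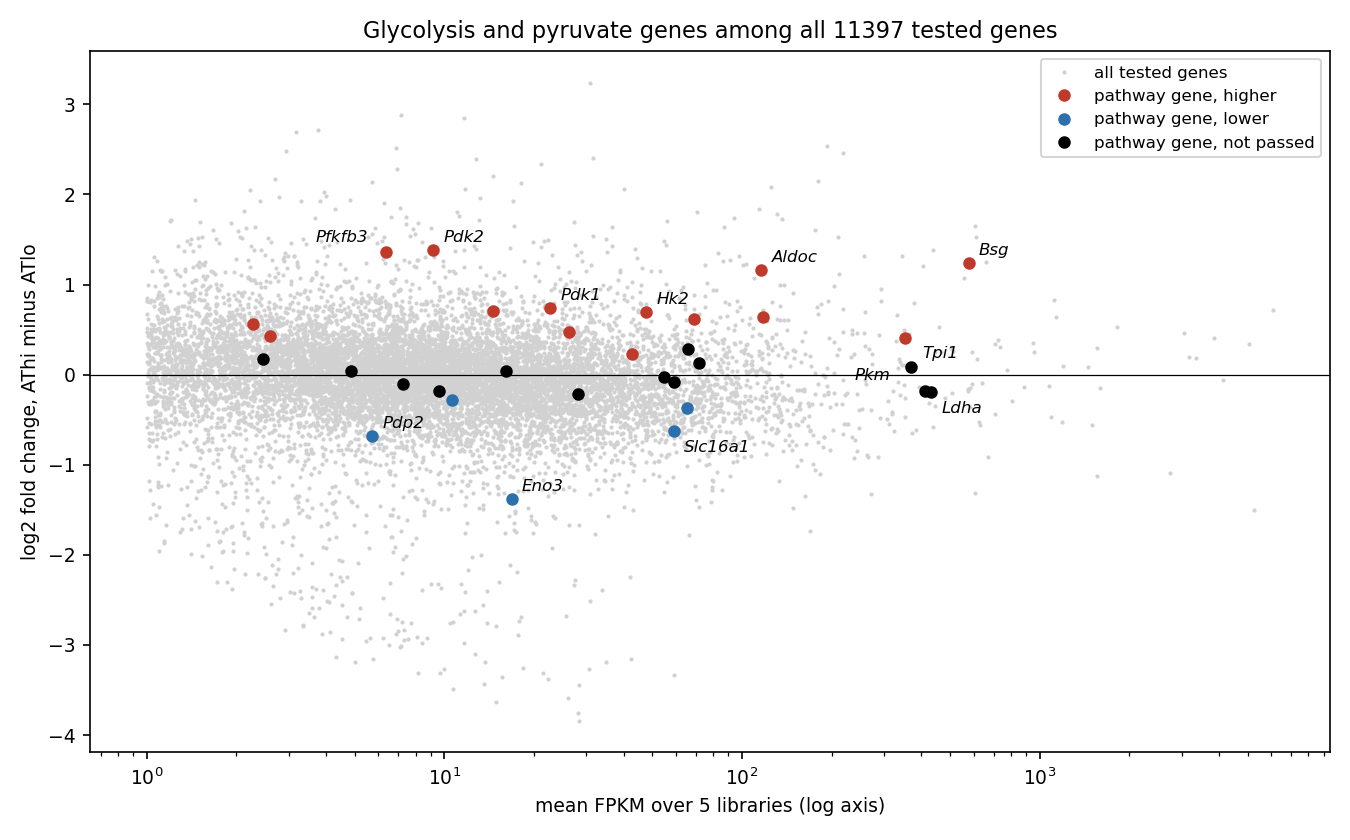
Log2 fold change (AThi minus ATlo) against mean FPKM on a log axis for all 11397 tested genes in grey, with the 32 pathway genes in red (higher), blue (lower) and black (did not pass). The pathway genes lie within the spread of the other genes, with Bsg the highest of those above 100 FPKM.

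Genes that branch from the same intermediates were taken from lists of the neighbouring pathways. Over all tested genes, 22.2% were called higher and 29.4% lower. The pentose phosphate pathway leaves at glucose-6-phosphate, and 6 of its 7 genes fell and 0 rose, with a median log2 fold change of -0.66. Taldo1, the transaldolase gene, was at 32.8 and 34.5 FPKM in AThi and 65.3, 66.3 and 65.2 FPKM in ATlo, and G6pdx, the first enzyme of the pathway, at 29.0 and 23.2 FPKM in AThi and 53.6, 44.9 and 43.4 FPKM in ATlo. Serine synthesis leaves at 3-phosphoglycerate, between Pgk1 and Pgam1. In the serine branch list, which also holds genes that interconvert serine and glycine, 5 of 5 genes fell, with a median of -1.06. Phgdh, the first enzyme of serine synthesis, was at 9.29 and 8.12 FPKM in AThi and 27.0, 25.6 and 27.7 FPKM in ATlo. Its change was -1.57 ± 0.08 (SE), and Psat1 changed by -1.50 ± 0.09 (SE).

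Glycogen genes showed 4 rises and 2 falls among 9 tested, where 22.2% of all tested genes rose and 29.4% fell. Gbe1, the branching enzyme, was at 9.39 and 10.5 FPKM in AThi and 3.51, 3.76 and 4.03 FPKM in ATlo and Ppp1r3b, which targets a phosphatase to glycogen, at 13.7 and 15.5 FPKM in AThi and 5.77, 6.21 and 4.99 FPKM in ATlo. Gyg, the primer protein of glycogen, and Phka1, a phosphorylase kinase subunit, changed by -0.30 and -0.28. In the hexosamine branch, 2 of 5 genes rose, Gfpt1 by 0.62 and Ogt by 0.66, and Gnpnat1 changed by -0.65; 1 symbol of that list, Oga, was not matched in the table. Among 14 tested isoforms and side genes of glycolysis, 5 rose and 5 fell: Galm, which interconverts the ring forms of glucose, and the hexokinase-related Hkdc1 rose most, by 0.97 and 0.92, and Slc2a6 and Bpgm changed by -0.82 and -0.80. Of 3 tested gluconeogenesis genes, 0 passed in limma and 0 had an unadjusted p under 0.05: Fbp2, G6pc3 and Pck2, named after their values were seen, had adjusted p-values of 0.685, 0.105 and 0.184.

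Downstream of PDH, 10 of 16 genes of the tricarboxylic acid cycle fell and 0 rose, with a median of -0.26. The shares over all tested genes were 29.4% lower and 22.2% higher. Dlst, the core of oxoglutarate dehydrogenase, was at 12.7 and 13.2 FPKM in AThi and 22.2, 22.6 and 22.4 FPKM in ATlo, and Idh3a at 8.57 and 8.42 FPKM in AThi and 13.2, 15.3 and 15.9 FPKM in ATlo. Of 9 genes of the NADH shuttles, 5 fell and 0 rose, led by the transaminase genes Got1 and Got2 at -0.65 and -0.52. The carrier genes Mpc1 and Mpc2, through which pyruvate crosses the inner mitochondrial membrane, were at 1.24 to 1.58 and 3.08 to 3.89 FPKM with overlapping groups, and did not pass. Pcx, the gene of pyruvate carboxylase, which makes oxaloacetate from pyruvate, was at 44.7 and 50.9 FPKM in AThi and 20.1, 19.4 and 21.0 FPKM in ATlo, a rise of 1.22 ± 0.08 (SE). Pdhx, which anchors Dld to the PDH core, changed by -0.55, and Pdpr, a regulatory subunit of the PDH phosphatase, by 0.39.

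**Figure D5:**
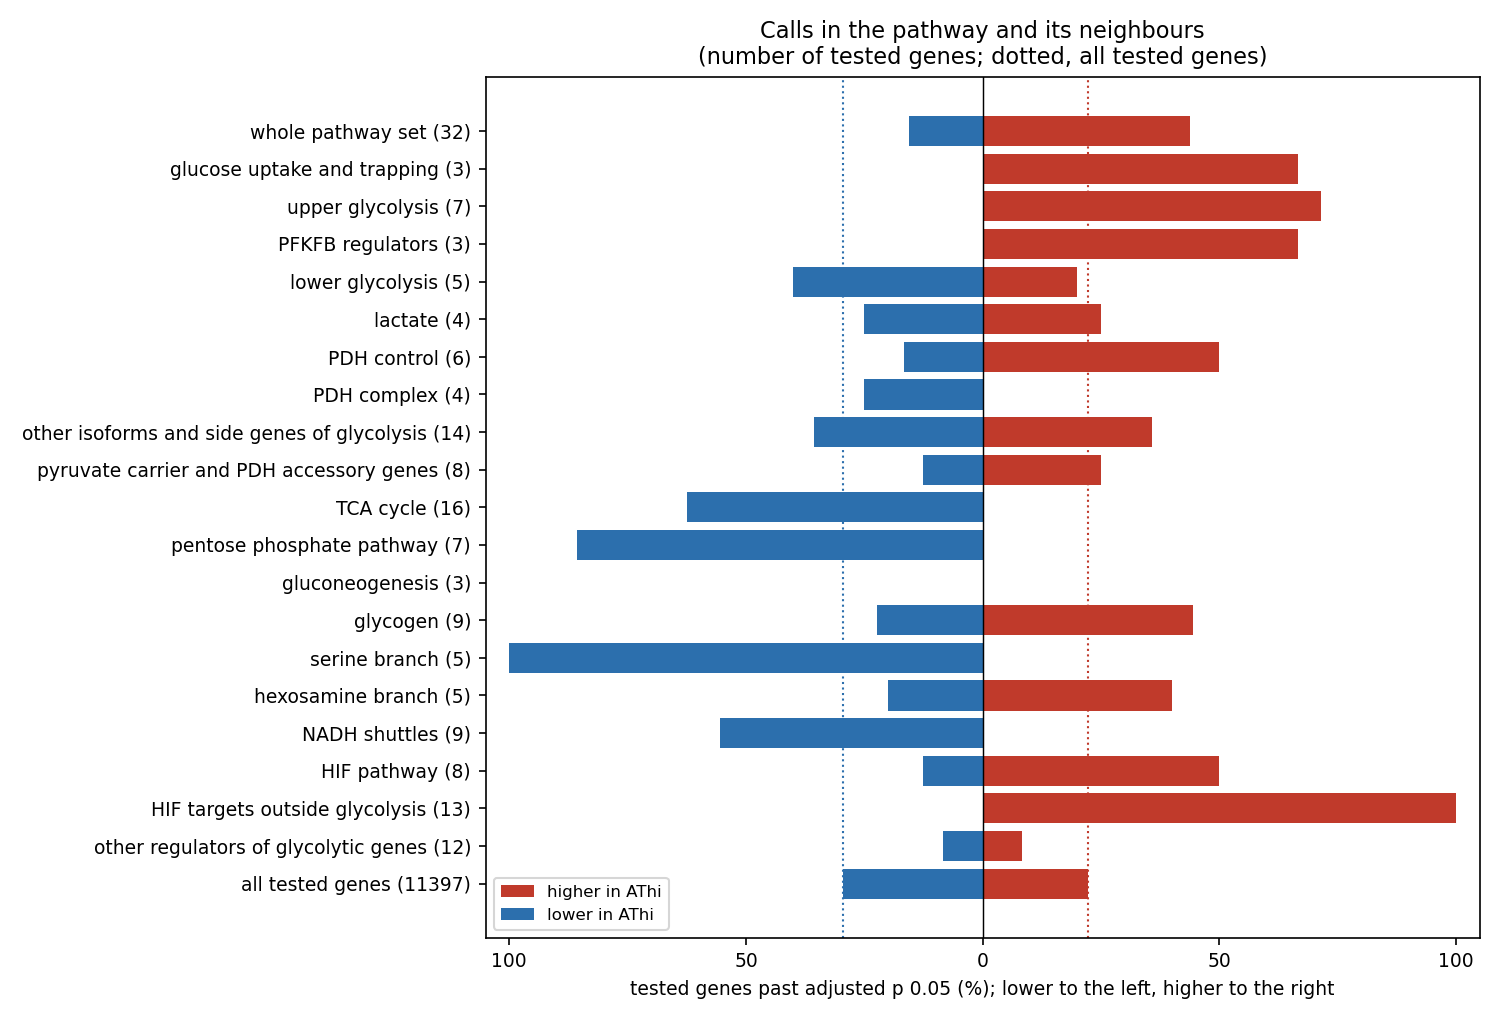
Percent of tested genes past an adjusted p of 0.05 in limma, higher in AThi to the right and lower to the left, for the pathway, its steps and neighbouring lists with at least 3 tested genes (number tested in brackets). Dotted lines mark the 22.2% and 29.4% of all tested genes; HIF targets outside glycolysis reach 13 of 13 to the right and the serine branch 5 of 5 to the left.

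HIF targets outside glycolysis rose in 13 of 13 tested genes, with a median of 1.14, led by the peptide hormone gene Adm at 1.93 and the collagen hydroxylase gene P4ha2 at 1.70. Of 8 genes of the HIF pathway itself, 4 rose and 1 fell. Egln3 and Egln1, the oxygen-dependent prolyl hydroxylases, rose by 1.06 and 0.94, and the transcript of Hif1a was lower, at 19.3 and 15.3 FPKM in AThi and 22.4, 24.1 and 27.6 FPKM in ATlo. Among 12 other regulators of glycolytic genes, Txnip, which restrains glucose uptake, was at 267 and 315 FPKM in AThi and 145, 149 and 144 FPKM in ATlo, and Mlx, the partner of glucose-sensing factors, changed by -0.41. Myc did not pass, at 65.7 to 78.5 FPKM over the 5 libraries.

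Markers of immune cells summed to at most 0.22 FPKM, fibroblasts to at most 0.17 FPKM and endothelial cells to at most 0.08 FPKM in a library. Acinar markers summed to 10.8 to 11.7 FPKM in AThi and 11.5 to 12.9 FPKM in ATlo, with 5 of 7 at 0 in every library and nearly all of the sum from Cela1. Erythroid markers, mostly Hba-a1, summed to 6.94 and 6.34 FPKM in AThi and 6.75, 1.02 and 1.31 FPKM in ATlo, so that ATlo replicate 1 lay with the AThi libraries; 3 of 6 were at 0 in every library. The part of these markers in the results was not tested. Neuronal markers, relevant to Aldoc and Eno2, summed to 4.37 to 7.45 FPKM in AThi and 5.88 to 6.84 FPKM in ATlo, most of it Tubb3.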

How the data were processed

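The authors deposited 1 table of FPKM values, with 1 column per library. Per the submitters' processing notes, bcl2fastq, STAR, featureCounts and DESeq2 were used with builds named mm10 and GRCm38. Not given in the sources used here were their roles and versions, the gene annotation, the FPKM formula, the strand setting and the handling of reads with several placements. Per the labels' protocols, total RNA went into stranded mRNA libraries. The table has no read counts, so no count test was run, and depth was read from the spacing of low FPKM values of genes up to 200 nt long (within 0.1 of a whole read).

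FPKM values were tested with limma 3.58.1 (R 4.3.3) on log2(FPKM + 0.5), a scale that understates the change of low genes. Rows averaging 1 FPKM or more across the 5 libraries entered a fit of group alone, with a trended prior and Benjamini-Hochberg adjustment over all 11397 rows. The test was tried on simulated data. Each log2 fold change is AThi minus ATlo. Isoform shares and sums were computed on linear FPKM. The shares and the ratio of PDH kinase to phosphatase sums were compared by exact two-sided permutation (SciPy 1.17.1). The sums themselves were not tested. Transcript copies were found with BLAST 2.17.0 in GENCODE M21, which also gave the gene coordinates (GRCm38); promoters came from RefSeq. Every one of the 37 genes is named. In neighbouring lists, up to 2 genes called in each direction with the largest change are named. Myc, Mpc1, Mpc2, Pklr and single markers were added after their values were seen. The members and lists were chosen with earlier results of these data known. The 13 alternatives changed the pseudocount, filter, scaling or moderation, added a replicate block, or left out 1 library. A further 26 rows with date-like symbols may hide gene names.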

Additional observations from a re-analysis of the deposited data

How the results depend on the processing

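The 14 rises and 5 falls were recomputed under 13 alternatives. Leaving out 1 library in turn gave 11 to 14 rises and 3 to 7 falls, with 3 falls without AThi replicate 1, where Eno1 and Dlat no longer passed, and 11 rises without AThi replicate 2, where Hk1, Aldoa and Pdk4 no longer passed. Calls held in each of the 13 alternatives for 10 genes that rose and 3 that fell. Pfkfb2 held in 12, since the minimum mean of 5 FPKM left it untested. With no filter on low values, Hk1 and Aldoa also lost theirs (adjusted p 0.0951 and 0.0861). Slc2a1 passed with a minimum mean of 5 FPKM, TPM, median-of-ratios scaling and robust moderation (adjusted p 0.0463, 0.0479, 0.0406 and 0.0472); the cause was not tested.

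Signs turned for values that were not called in any of these fits. On the log2 scale, Pfkm was at 0.0154 under TPM and 0.0139 under median-of-ratios scaling. With 1 library left out, Pfkm ran from -0.115 (without ATlo replicate 3) to 0.0722 (without ATlo replicate 1), Pfkfb4 from -0.0437 (without AThi replicate 2) to 0.381, Slc16a3 from -0.00257 (without AThi replicate 2) to 0.264, Pdk3 from -0.0158 (without ATlo replicate 1) to 0.134 and Pdp1 from -0.265 to 0.0673 (without AThi replicate 2). The difference in the Ldhb share ran from -0.00146 to 0.00400 percentage points when 1 library was left out.

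With a replicate block, 14 genes were higher and 5 lower, Hk1 lost its call (adjusted p 0.105), Slc2a1 passed (0.0170) and Pdk3 was at -0.00992. Deviations from the group means correlated at 0.20 for number 1 and 0.30 for number 2. With 2 AThi libraries, the deviations of 1 mirror those of the other, so both values are not independent. Same-numbered libraries also share the start of the code in their titles. No label says what the number or code marks and there are 2 such pairs, so whether the libraries are paired is unknown, and the fit without the block was kept as the main one. Over all genes, the median log2 fold change lay between -0.07 and 0.03 in these fits. Ldhb and Pgam2 lay under the level of 3 reads, so no difference in them was detectable at this depth. Another annotated gene also matched 76.8% of the Ldhb transcript. Reads could be shared with that copy, so the low Ldhb level is itself uncertain.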
